A study of Nicotiana tabacum with 18 samples.

Results

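The genes described here are 4 tobacco genes for cation antiporters of internal membranes, chosen by name and identifier from the K+ transport genes that the study lists. NHX1a (Nitab4.5_0002455g0040) and NHX1b (Nitab4.5_0003067g0080) were matched to the Arabidopsis protein NHX1, and KEA5a (Nitab4.5_0003984g0010) and KEA5b (Nitab4.5_0000072g0230) to Arabidopsis KEA5. The letters a and b are used here only to tell the genes of a pair apart. They are 4 of the 69500 genes in the expression table and 4 of the 26 K+ genes on the list. All 4 passed the filter on low values in every comparison. The names rest on protein similarity to Arabidopsis, so the roles below are those of the Arabidopsis proteins.

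In Arabidopsis, NHX1 sits in the tonoplast, the membrane around the vacuole, and exchanges protons from the vacuole for K+ or Na+ from the cytosol. It thereby loads K+ into the vacuole, the largest store of K+ in a leaf cell, and takes part in the control of vacuolar pH and turgor. KEA5 belongs to the K+ efflux antiporters, and with its close relatives KEA4 and KEA6 it works in the Golgi apparatus, the trans-Golgi network and the prevacuolar compartment, where exchange of K+ for protons adjusts the pH of the lumen. Other members of that family, KEA1, KEA2 and KEA3, are proteins of the chloroplast.

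RNA was sequenced from middle tobacco leaves taken 70 days after transplanting to the field, in 6 groups of 3 libraries. Hybrid G70×GDH11 (H) was set against its female parent G70 (HP1) and its male parent GDH11 (HP2). Hybrid K326×GDH11 (L) was set against its female parent K326 (LP1) and its male parent GDH11 (LP2), so HP2 and LP2 are the same line, sampled for each cross. The study selected H as a hybrid with strong and L as one with weak heterosis for leaf K+ content, heterosis being the excess of a hybrid over its parents, and asked which genes go with it. The labels name no transgene and no treatment in any group. Each library holds leaves mixed from several field plants, and in such whole-leaf samples fewer cells of a type and less RNA per cell cannot be told apart.

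Levels are in FPKM, sequenced fragments scaled by transcript length and by the mapped total of the library. Between 27527 and 33091 genes reached 1 FPKM in a library, and the fewest were in LP2 replicate 2. A principal component analysis of 34960 genes put 38.1% of the variance on the first component, along which libraries of the same group lay on both sides in H, HP1, HP2, L and LP2. On its negative side were 8 libraries (H replicates 1 and 2, HP1 replicate 1, HP2 replicate 1, L replicates 2 and 3, LP2 replicates 2 and 3), with LP2 replicate 2 the farthest out, and the other 10 were on its positive side. What lies behind this component was not tested, and the labels give no batch. Results that rest on LP2 replicate 2, on H replicate 3 or on replicate 1 of HP1 and HP2 are given with and without them.

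NHX1a had the highest level of the 4 genes, 17.2 FPKM on average over the 18 libraries, and stood 8th among the 26 K+ genes. It was read at 21.62, 17.62 and 13.32 FPKM in H, against 22.96, 16.56 and 15.52 FPKM in HP1 and 20.79, 13.86 and 14.43 FPKM in HP2 (replicates 1, 2 and 3 in this order, as in all lists below). The 3 groups overlapped, and the highest value in each was replicate 1. One hybrid library, H replicate 3, lay below all 6 libraries of its parents, and none lay above them.

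In the other cross NHX1a was at 19.32, 19.88 and 19.45 FPKM in L, against 15.62, 15.48 and 12.62 FPKM in LP1 and 21.43, 7.83 and 20.86 FPKM in LP2. Its 3 libraries of L were close together and all higher than the 3 of LP1, while LP2 spread on both sides of them, with its replicate 2 below and the others above. The groups ranked L, HP1, H, LP2, HP2 and LP1 by mean, and every group overlapped with the next one in that order.

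NHX1b was lower, 6.75 FPKM on average, and stood 12th among the K+ genes. It was read at 11.19, 6.29 and 4.63 FPKM in H, against 8.34, 4.78 and 5.42 FPKM in HP1 and 8.91, 6.36 and 3.91 FPKM in HP2. H replicate 1 exceeded every parental library of the cross, and the other 2 hybrid libraries lay within the parental range. NHX1b had 5.2, 7.84 and 8.7 FPKM in L, against 6.06, 3.78 and 5.37 FPKM in LP1 and 9.14, 4.07 and 11.56 FPKM in LP2. The highest and the lowest value of the gene over all 18 libraries, 11.56 FPKM in LP2 replicate 3 and 3.78 FPKM in LP1 replicate 2, were both in parents of the K326 cross. By mean the order was LP2, H, L, HP2, HP1 and LP1, again with overlap between all neighbours.

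KEA5a averaged 4.19 FPKM and stood 19th among the 26 K+ genes. It was read at 4.15, 3.12 and 4.71 FPKM in H, against 2.94, 4.78 and 4.23 FPKM in HP1 and 5.17, 4.21 and 4.43 FPKM in HP2. All 3 hybrid libraries lay within the range of the parents. KEA5a had 5.32, 4.81 and 4.05 FPKM in L, against 5.68, 5.3 and 2.83 FPKM in LP1 and 5.24, 0.5 and 3.86 FPKM in LP2. The value of 0.5 FPKM in LP2 replicate 2 stood far below all others of the gene, which ran between 2.83 and 5.68 FPKM.

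KEA5b averaged 4.62 FPKM and stood 18th. It was read at 3.85, 3.38 and 4.48 FPKM in H, against 3.08, 5.01 and 5.53 FPKM in HP1 and 5.08, 4.36 and 5.18 FPKM in HP2. It had 4.83, 5.64 and 4.46 FPKM in L, against 5.16, 7.52 and 3.52 FPKM in LP1 and 4.92, 2.98 and 4.17 FPKM in LP2. Hybrid libraries lay within the parental range in both crosses. By mean H was the lowest group for KEA5b and LP2 the lowest for KEA5a, and for both genes every group overlapped with its neighbours in the order.

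**Figure D1:**
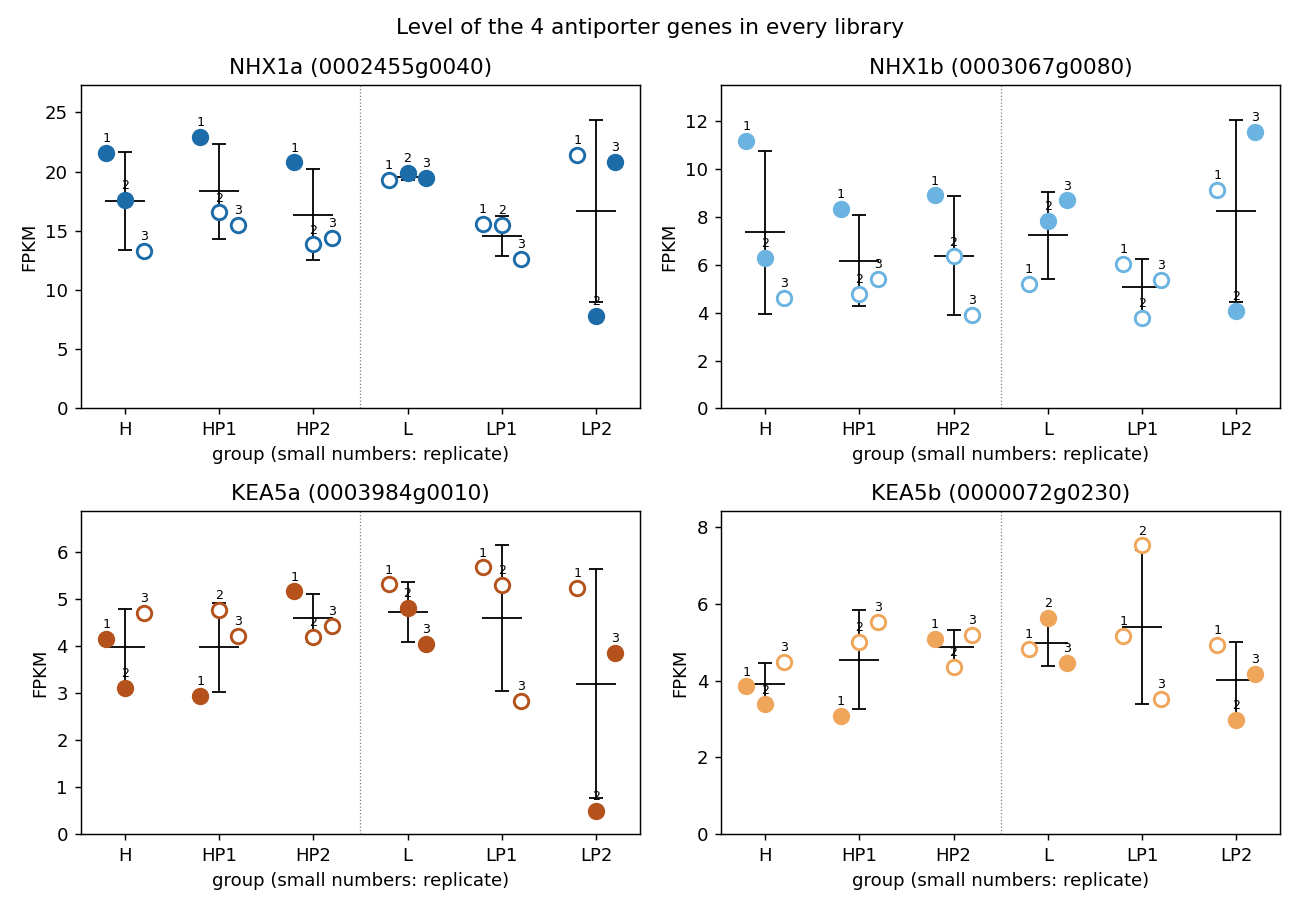
Level of each gene in FPKM (vertical axis, from 0) in every library, by group. Circles are libraries with their replicate number, filled where the library lies on the negative side of the first principal component, and bars give the mean ± SD (n = 3). NHX1a in H ran between 13.32 and 21.62 FPKM, inside a parental range of 13.86 to 22.96 FPKM but for replicate 3, and LP2 replicate 2 held the lowest value of NHX1a, KEA5a and KEA5b.

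Within the G70 cross the question was whether H differs from either parent or from their mean, the mid-parent. NHX1a averaged 17.5 ± 4.15 FPKM in H, against means of 18.3 ± 4.03 FPKM for HP1 and 16.4 ± 3.85 FPKM for HP2 (SD, n = 3 each). NHX1b averaged 7.37 ± 3.41 FPKM in H, against 6.18 ± 1.90 FPKM in HP1 and 6.39 ± 2.50 FPKM in HP2. KEA5a averaged 3.99 ± 0.81 FPKM in H, against 3.98 ± 0.94 FPKM in HP1 and 4.60 ± 0.50 FPKM in HP2. KEA5b averaged 3.90 ± 0.55 FPKM in H, against 4.54 ± 1.29 FPKM in HP1 and 4.87 ± 0.45 FPKM in HP2. For all 4 genes the libraries of the 3 groups overlapped. Overlap was the rule in this cross: all hybrid libraries lay beyond all parental ones in only 2.35% of the 33991 genes tested, and in 0 of the 4.

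The test was limma on log2(FPKM + 1) over all genes, and a call needed both a Benjamini-Hochberg adjusted p no higher than 0.05 and a log2 difference of 1 or more in size. Against the mid-parent, the log2 difference of H was 0.01 for NHX1a (95% confidence interval -0.49 to 0.51), 0.17 for NHX1b (-0.54 to 0.88), -0.08 for KEA5a (-0.50 to 0.33) and -0.21 for KEA5b (-0.63 to 0.22). The limma adjusted p was 1.00 for each, and 0 of the 4 were called, where 0.482% of the 33991 genes tested were. The median of all genes was -0.04 on the same scale. At an unadjusted limma p of at most 0.05, again 0 of the 4 passed, where 4.17% of all genes did.

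The comparisons with single parents gave the same counts. In H against HP1, 0 of the 4 genes were called (0.488% of all genes, and 4.14% at an unadjusted p of at most 0.05), with log2 differences between -0.15 for KEA5b and 0.18 for NHX1b. In H against HP2, 0 of the 4 were called (0.421% of all genes, and 3.69% unadjusted), with differences between -0.26 for KEA5b and 0.16 for NHX1b. In HP1 against HP2, 0 of the 4 were called (0.462% of all genes, and 3.17% unadjusted), and the differences ran between -0.18 for KEA5a and 0.16 for NHX1a. In each of these 3 comparisons 0 of the 4 antiporter genes reached an unadjusted limma p of 0.05. All confidence intervals of the cross lay between -0.83 and 0.99, which leaves room for changes of less than the fold threshold in either direction.

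In the K326 cross NHX1a averaged 19.6 ± 0.29 FPKM in L, against 14.6 ± 1.69 FPKM in LP1 and 16.7 ± 7.69 FPKM in LP2 (SD, n = 3 each). NHX1b averaged 7.25 ± 1.82 FPKM in L, against 5.07 ± 1.17 FPKM in LP1 and 8.26 ± 3.82 FPKM in LP2. KEA5a averaged 4.73 ± 0.64 FPKM in L, against 4.60 ± 1.55 FPKM in LP1 and 3.20 ± 2.44 FPKM in LP2. KEA5b averaged 4.98 ± 0.60 FPKM in L, against 5.40 ± 2.01 FPKM in LP1 and 4.02 ± 0.98 FPKM in LP2. The widest spreads were those of LP2, for every gene but KEA5b, where LP1 spread more. All libraries of L lay beyond all parental ones in 5.67% of the 33493 genes tested, and in 0 of the antiporter genes.

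Against the mid-parent, the log2 difference of L was 0.37 for NHX1a (-0.31 to 1.05), 0.17 for NHX1b (-0.53 to 0.88), 0.37 for KEA5a (-0.58 to 1.32) and 0.10 for KEA5b (-0.45 to 0.66), with a median over all genes of 0.13. Without LP2 replicate 2 these differences were 0.15 for NHX1a, -0.021 for NHX1b, 0.059 for KEA5a and 0.026 for KEA5b, and the median of all genes was 0.037. With all 9 libraries the limma adjusted p ran between 0.773 for NHX1a and 0.914 for KEA5b. By this test 0 of the 4 were called, where 0.206% of the 33493 genes tested were (69 genes, or 42 with the replicate number as a block), and 0 of the 4 reached an unadjusted p of 0.05, where 9.35% of all genes did. In L against LP2 0 of the 4 were called as well, where 0.266% of all genes were (89 genes, or 59 with the block) and 6.58% passed unadjusted. Its largest log2 difference was 0.68 for KEA5a, beside a median of 0.22 over all genes. Without LP2 replicate 2 the difference of KEA5a was 0.05, that of NHX1a -0.11 in place of 0.33, and the median 0.05. LP1 against LP2 had 0 of the 4 called (0.2% of all genes, and 11.3% unadjusted), with log2 differences between -0.53 for NHX1b and 0.61 for KEA5a.

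NHX1a in L against LP1 was the only case in which the libraries of a group and its comparison group did not overlap. The log2 difference was 0.41 (-0.38 to 1.19) with a limma adjusted p of 0.731, and 0 of the 4 genes were called, where 0.17% of all genes were and 12.6% passed unadjusted. The 3 libraries of L lay above the 3 of LP1 in 15.6% of all genes tested, so that such a separation was frequent in this pair of groups. All libraries of LP1 lay on the positive side of the first principal component, and L replicates 2 and 3 on its negative side. Hybrid and component are thus partly mixed in this pair. L replicate 1, on the positive side, was at 19.32 FPKM. Which of them the separation goes with was not tested. The test takes its spread from all 9 libraries, LP2 included. With only L and LP1 in the fit the limma p was 0.0368 unadjusted and 0.22 adjusted, and without LP2 replicate 2 it was 0.0227 unadjusted and 0.175 adjusted. NHX1b differed by 0.44 in the same comparison, with overlapping libraries.

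LP2 replicate 2 also bears on the parents of this cross. With it left out, LP1 was lower than LP2 in NHX1a by a log2 difference of -0.51 and in NHX1b by -0.91, at unadjusted limma p of 0.0129 and 0.0080 and adjusted p of 0.431 and 0.390. With all 9 libraries the same differences were -0.07 and -0.53, at adjusted p of 0.927 and 0.526. KEA5a differed by -0.017 without that library, in place of 0.61. Neither version passed the test.

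**Figure D2:**
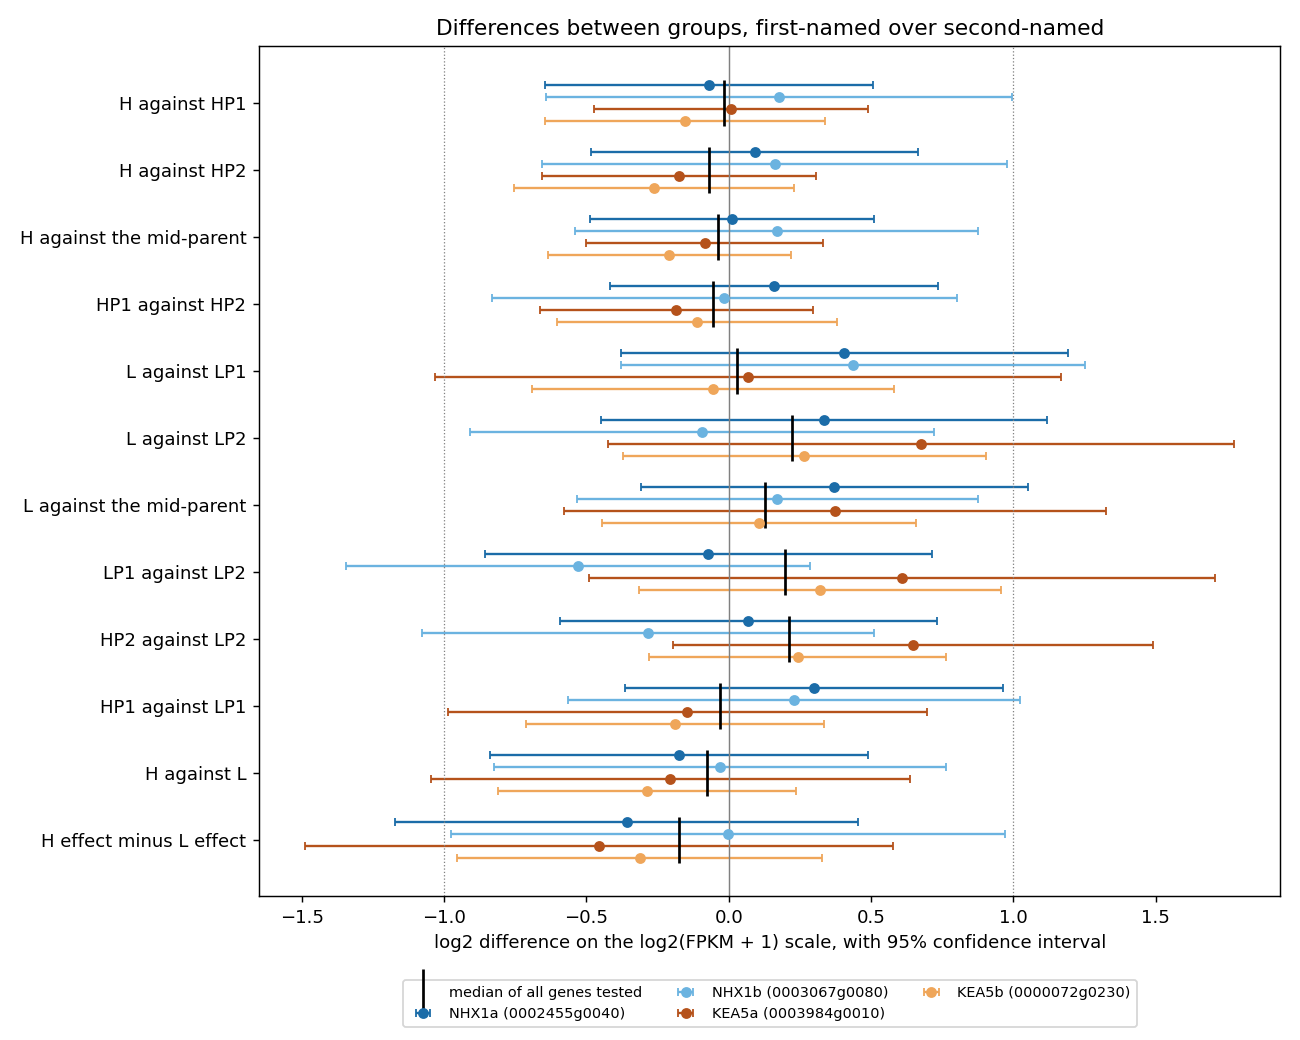
Log2 difference of each gene on the log2(FPKM + 1) scale (horizontal axis) with its 95% confidence interval in the 12 comparisons, the first-named group over the second. Black ticks mark the median of all genes and dotted lines a log2 difference of 1 in size. Every interval includes 0, and the highest bound, 1.77, is that of KEA5a in L against LP2.

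Across the crosses the 2 hybrids, the 2 female parents and the 2 sets of GDH11 plants were compared in a fit of all 18 libraries. In H against L 0 of the 4 genes were called (0.157% of all 34960 genes tested, and 5.08% unadjusted), with log2 differences between -0.29 for KEA5b and -0.03 for NHX1b. In HP1 against LP1 0 of the 4 were called (0.541% of all genes, and 4.12% unadjusted), with differences between -0.19 for KEA5b and 0.30 for NHX1a. In HP2 against LP2, the same line in each cross, 0 of the 4 were called (0.00286% of all genes, 1 gene, and 5.69% unadjusted). KEA5a differed by 0.65 between these, and by 0.02 without LP2 replicate 2. Without that library KEA5b differed by 0.083 in place of 0.24. The differences of the NHX1 genes became larger in size, -0.37 in place of 0.07 for NHX1a and -0.67 in place of -0.28 for NHX1b.

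The difference between the hybrid effects, H over its mid-parent minus L over its mid-parent, was -0.36 for NHX1a, -0.0023 for NHX1b, -0.46 for KEA5a and -0.31 for KEA5b, with a median of -0.17 over all genes. By limma 0 of the 4 were called, where 0.083% of all genes were and 5.01% passed unadjusted, and the adjusted p was 0.968 for NHX1a, KEA5a and KEA5b and 0.999 for NHX1b. Without LP2 replicate 2 the difference was -0.14 for NHX1a and -0.14 for KEA5a, and that of NHX1b changed sign to 0.19. For KEA5b it stayed between -0.43 and -0.20 whichever single library was left out. At an unadjusted p of at most 0.05, 0 of the 4 passed in any of the 12 comparisons.

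How the G70 cross reads depends on which libraries are taken, although no call does. Without H replicate 3 and replicate 1 of both its parents, H exceeded its mid-parent by a log2 difference of 0.35 in NHX1a and 0.64 in NHX1b, and KEA5a and KEA5b had differences of -0.23 and -0.38. The limma adjusted p were 0.182, 0.152, 0.372 and 0.150, so 0 of the 4 were called, where 8.55% of all genes were in those 6 libraries. The remaining H libraries both lay on the negative side of the first principal component and the remaining 4 parental libraries on its positive side, so in that set hybrid and component cannot be told apart.

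The values of the 9 libraries show this split gene by gene. On the negative side NHX1a was at 21.62 and 17.62 FPKM in H, against 22.96 FPKM in HP1 and 20.79 FPKM in HP2. On the positive side it was at 13.32 FPKM in H, against 16.56 and 15.52 FPKM in HP1 and 13.86 and 14.43 FPKM in HP2. The library of H on the positive side was thus lower than all parental libraries there, and on the negative side neither H library exceeded HP1. NHX1b had 11.19 and 6.29 FPKM in H on the negative side, against 8.34 FPKM in HP1 and 8.91 FPKM in HP2, so that one H library was above and one below both parents. KEA5a had 4.15 and 3.12 FPKM in H there, against 2.94 FPKM in HP1 and 5.17 FPKM in HP2, between the parents in both libraries. KEA5b had 3.85 and 3.38 FPKM in H, against 3.08 FPKM in HP1 and 5.08 FPKM in HP2, likewise between them.

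**Figure D3:**
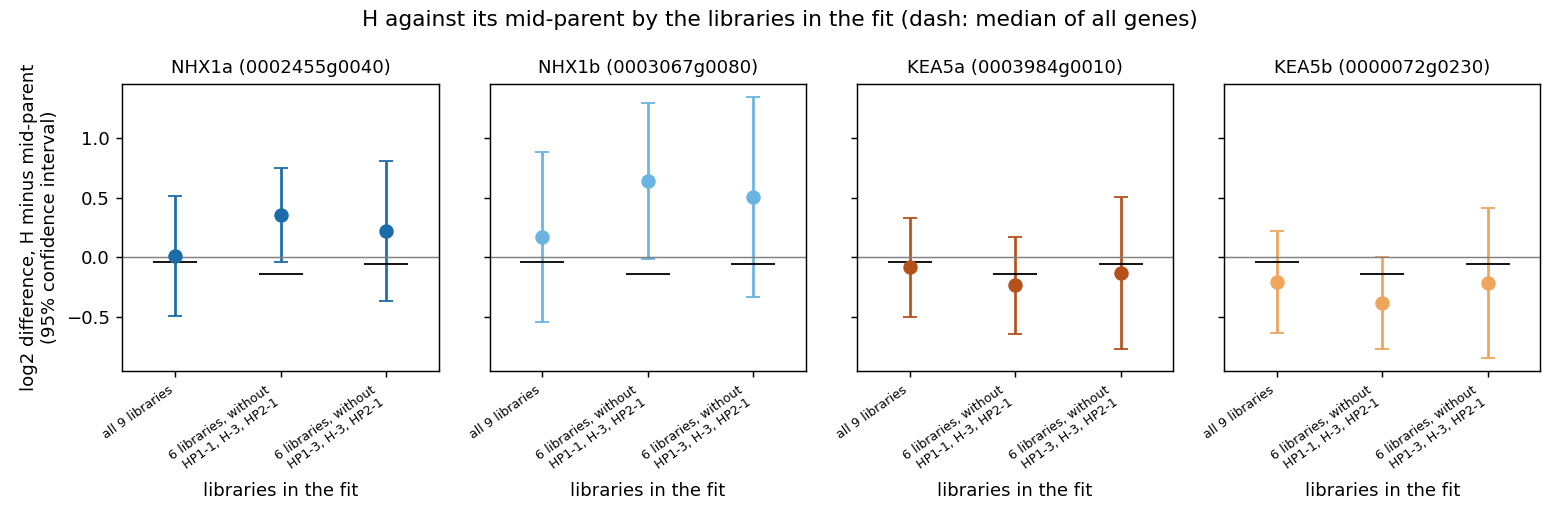
Log2 difference of H from its mid-parent for each gene (vertical axis, with 95% confidence interval) in 3 sets of libraries of the G70 cross, with the median of all genes as a dash. NHX1a moves between 0.01 with all 9 libraries and 0.35 without H replicate 3 and replicate 1 of both its parents, and every interval includes 0.

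Tables with 1 value per group were deposited beside the table of libraries. For all 4 genes the value for H or HP1 was the mean of its replicates 1 and 2 and that for HP2 the mean of its replicates 2 and 3, whereas L, LP1 and LP2 had the mean of their 3 libraries, within the rounding of 0.005 FPKM. The authors' value of NHX1a was thus 19.62 FPKM in H, against 19.76 FPKM in HP1 and 14.15 FPKM in HP2, and that of NHX1b was 8.74 FPKM in H, against 6.56 FPKM in HP1 and 5.14 FPKM in HP2. In a fit of the libraries behind these means, a set added after the data were seen, the log2 difference of H from the mid-parent was 0.22 for NHX1a, 0.50 for NHX1b, -0.13 for KEA5a and -0.21 for KEA5b. The limma adjusted p lay between 0.659 and 0.885, and 0 of the 4 genes were called, where 0.0485% of all genes were.

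The genes of the NHX1 pair kept a steady order. NHX1a was higher than NHX1b in 18 of 18 libraries, between 1.80-fold and 4.10-fold in FPKM, with a mean log2 ratio of 1.26 ± 0.30 (SD, n = 18). A sign-flip permutation test over the libraries gave p = 1e-05, the smallest its resamples can give (adjusted p = 2e-05 over the 2 pairs). NHX1a made up 71.3 ± 4.66% of the summed FPKM of the pair in H, against 75.0 ± 2.26% in HP1 and 72.4 ± 5.48% in HP2. In the other cross it made up 73.2 ± 5.02% in L, against 74.2 ± 5.44% in LP1 and 66.7 ± 2.99% in LP2 (SD, n = 3 each).

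The genes of the KEA5 pair were near balance. KEA5a was the higher one in 6 of 18 libraries, and the mean log2 ratio of KEA5a to KEA5b was -0.15 ± 0.35 (SD, n = 18; permutation p = 0.0279, adjusted over the 2 pairs p = 0.0279). Its share of the pair was 14.4% in LP2 replicate 2 and between 41.3 and 52.4% in the other libraries. Without LP2 replicate 2 the mean log2 ratio was -0.08 with a permutation p of 0.0549, and the test also missed 0.05 without HP1 replicate 3 (ratio -0.14, p = 0.0532), LP1 replicate 2 (-0.14, p = 0.0545) or LP1 replicate 3 (-0.15, p = 0.0505). Summed over each pair, NHX1 exceeded KEA5 in 18 of 18 libraries, by a median of 2.74-fold in FPKM.

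**Figure D4:**
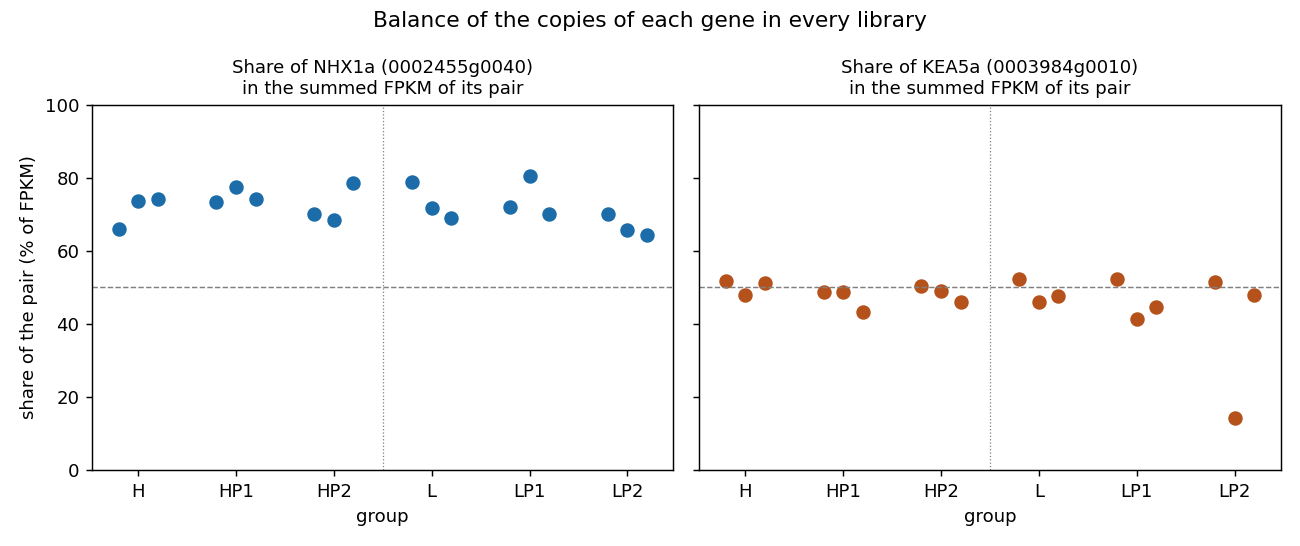
Share of NHX1a in the summed FPKM of NHX1a and NHX1b (left) and of KEA5a in that of KEA5a and KEA5b (right), in percent of FPKM, with 1 point per library by group and a dashed line at equal shares. NHX1a lies between 64.3 and 80.4% in every library, and KEA5a near equal shares except for 14.4% in LP2 replicate 2.

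Over the 18 libraries the genes of a pair varied together. NHX1a and NHX1b had a Pearson r of 0.74 on log2(FPKM + 1) and a Spearman rho of 0.80 (permutation p = 0.00018 for each, adjusted over 6 pairs of genes p = 0.00087 and 0.00054). Without the 2 libraries farthest from the median of NHX1a, r was 0.80, and within the crosses it was 0.84 for G70 and 0.72 for K326 (n = 9 each). KEA5a and KEA5b had an r of 0.72 and a rho of 0.80 (permutation p = 0.00029 and 0.00015, adjusted p = 0.00087 and 0.00054), with an r of 0.78 without the 2 farthest libraries, and with 0.85 for the G70 cross and 0.78 for the K326 cross. After quantile normalization r was 0.69 for the NHX1 pair and 0.10 for the KEA5 pair, and for the KEA5 pair 0.63 once LP2 replicate 2 was left out. All pairs of genes share the same libraries, and with them the first principal component. The permutations shuffled libraries freely across groups, so these p-values test against no relation at all. They do not set a pair apart from other genes. A lower r with NHX1a than that of NHX1b was found in 97.0% of the genes searched below. With NHX1b, 97.6% were lower than NHX1a. For the KEA5 genes these shares were 78.6% (KEA5b with KEA5a) and 91.5% (KEA5a with KEA5b).

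Between the families the relation was less steady. NHX1a and KEA5a had an r of 0.63 (permutation p = 0.0251, adjusted p = 0.0503) and a rho of 0.12, but r was 0.03 without LP2 replicate 2, where both genes were lowest. Within the crosses it was -0.38 for G70 and 0.86 for K326, which holds that library. Without H replicate 3 and replicate 1 of both its parents r was 0.76 (adjusted permutation p = 0.0254), and 0.25 once LP2 replicate 2 was left out of that set as well. On the negative side of the first principal component r was 0.92 (n = 8), or 0.0087 without LP2 replicate 2 (n = 7), whereas among the 10 libraries on the positive side, which do not include it, r was 0.64. Leaving LP2 replicate 2 out of these sets was chosen after the data were seen. The other 3 pairs across the families had r between -0.23 and 0.19, with an adjusted permutation p of 0.497 for each.

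**Figure D5:**
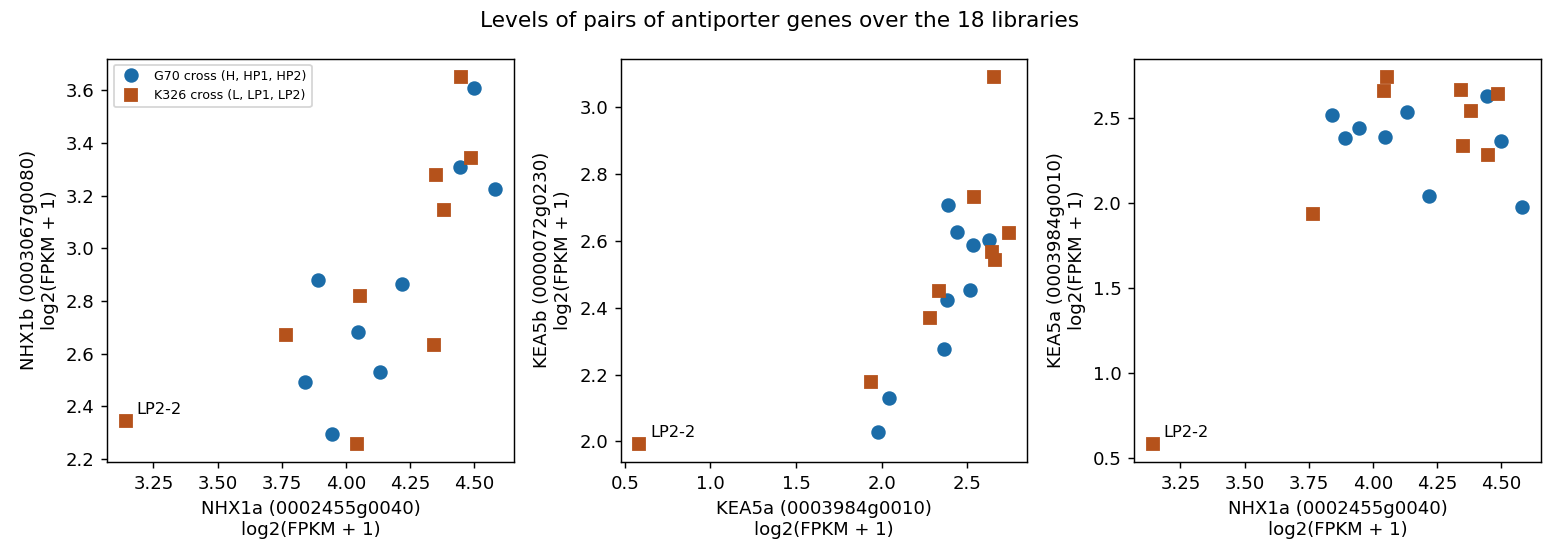
Level on log2(FPKM + 1) of NHX1b against NHX1a (left), KEA5b against KEA5a (middle) and KEA5a against NHX1a (right), with 1 point per library and the crosses told apart by shape and colour. LP2 replicate 2, marked LP2-2, lies at the low end of each panel, and without it the right panel has an r of 0.03.

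The genes whose pattern over the 18 libraries was nearest to each antiporter were found among 32872 genes with a mean of at least 1 FPKM, as a description. For NHX1a these were Nitab4.5_0001200g0130 and Nitab4.5_0002886g0010, both with an r of 0.95, and for NHX1b Nitab4.5_0003221g0040 (0.93) and Nitab4.5_0000024g0120 (0.92). KEA5a was nearest to Nitab4.5_0000888g0050 and Nitab4.5_0000009g0120, both at 0.97, and KEA5b to Nitab4.5_0002516g0020 and Nitab4.5_0001942g0010, both at 0.94. Without the 2 libraries farthest from the median of each antiporter, these r were 0.90 and 0.88 for NHX1a and 0.91 and 0.92 for NHX1b. For KEA5a they were 0.86 and 0.87, and for KEA5b 0.88 and 0.91. Over all 18 libraries the partner in the pair ranked far lower. NHX1b ranked 970th by r with NHX1a and NHX1a 773rd with NHX1b, while KEA5b ranked 7028th with KEA5a and KEA5a 2778th with KEA5b. These ranks include LP2 replicate 2 and were not computed without it. The r of the KEA5 pair was 0.80 without that library, in place of 0.72, and that of the NHX1 pair 0.78, in place of 0.74.

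Among the other K+ genes, NHX1a was most like KEA3 Nitab4.5_0001093g0060, a K+ antiporter of the thylakoid in Arabidopsis, with an r of 0.81. NHX1b was most like AKT2 Nitab4.5_0001744g0070, a K+ channel of the phloem in Arabidopsis, with an r of 0.85. KEA5a and KEA5b were both most like CIPK6 Nitab4.5_0006408g0010, one of the kinases that act with calcineurin B-like calcium sensors, with r of 0.87 and 0.75. Without the 2 libraries farthest from the median these r were 0.74, 0.86, 0.71 and 0.69.

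The other 22 K+ genes on the list were chloroplast antiporters (KEA1/2, KEA3), vacuolar channels (TPC1, TPKs), channels of the plasma membrane (AKT2, KAT1/2, GORK) and protein kinases (CIPK5, CIPK6), of which 21 passed the filter on low values. In each of the 12 comparisons 0 of these 21 were called in either direction. Between 0 and 4 of them reached an unadjusted limma p of 0.05. Over all genes tested, between 0.00286 and 0.541% were called in a comparison, and between 3.17 and 12.6% reached that unadjusted p. Against the mid-parent the median log2 difference of the 21 genes was -0.10 in H, with a range of -0.76 to 0.26, beside -0.04 for the antiporters and -0.04 for all genes. In L it was 0.20, with a range of -0.75 to 1.27, beside 0.27 for the antiporters and 0.13 for all genes. Without LP2 replicate 2 the median in L was -0.026 for the 21 genes, beside 0.042 for the antiporters and 0.037 for all genes, a choice likewise made after the data were seen.

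As levels per length, the chloroplast antiporters KEA1/2 (Nitab4.5_0003111g0100 and Nitab4.5_0001620g0100) averaged 20.7 and 17.6 FPKM and the vacuolar channel TPC1 (Nitab4.5_0000512g0020 and Nitab4.5_0004344g0030) 19.9 and 15.4 FPKM, near NHX1a. The vacuolar K+ channels TPKs (Nitab4.5_0005906g0010 and Nitab4.5_0003491g0060) averaged 6.13 and 5.48 FPKM, near NHX1b. The share of variance of log2(FPKM + 1) that lay between the 6 groups was 15.8% for NHX1a, 16.3% for NHX1b, 22.9% for KEA5a and 24.2% for KEA5b. The median over all genes tested was 28.9%, and all 4 antiporter genes were below it. In this share they exceeded 13.3, 14.3, 31.9 and 35.9% of all genes, in the same order. With so few libraries in a group, part of the variance falls between group means even where groups do not differ. A share near the median is therefore no sign of a group effect. Shares without LP2 replicate 2 were not computed.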

How the data were processed

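Leaf RNA of 18 libraries was prepared with TRIzol and TruSeq kits and sequenced as paired ends on an Illumina instrument. The paper names TopHat2 and RSEM on the K326 genome, and the submitters' processing notes name HISAT2, StringTie and RSEM. Which mapper made the table is not settled, and no version is given in the sources used here. The deposited values are FPKM rounded to hundredths by the authors (all values whole hundredths, smallest above 0 is 0.01), so read counts and depth are unknown, and the DESeq2 test of the study was not run. FPKM divides by each library's total, so that a few abundant genes can shift all others.

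A gene entered a fit where 3 or more of its libraries had 1 FPKM or more, and was tested on log2(FPKM + 1) with limma 3.58.1 (R 4.3.3), with a variance trend, two-sided, with Benjamini-Hochberg adjustment over all genes. Comparisons within a cross used its 9 libraries and those between crosses all 18. Fold changes on this scale understate the change of low genes. Correlations and ratios of paired genes were tested with 100000 permutations (Python 3.11.15, numpy 2.4.6). The limma script was checked on simulated data. The labels number the replicates and say no more, so p-values measure the spread between these libraries. The paper describes a field trial laid out in random blocks with replicates. Whether a replicate number stands for a field block is not stated, and the reported fits use no block.

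Same-numbered libraries deviated together (each r over 0.1, between 0.21 and 0.58) in HP1 and HP2, L and LP2, and LP1 and LP2. This was seen from the data and not from the labels. In the other pairs of groups at least 1 of the 3 r was below 0.1. In H and HP1 the r were 0.51, -0.44 and 0.60 for replicates 1, 2 and 3. In H and HP2 they were 0.60, -0.22 and 0.70. Alternatives covered pseudocount, filter, scaling, variance trend, replicate block, thresholds and libraries left out. The set without H replicate 3 and replicate 1 of both its parents follows the libraries left out of the study's qRT-PCR comparison. The genes named are the 4 antiporter genes, and for each the 2 genes and the 1 listed K+ gene of highest r. Members and lists were chosen with earlier results of these data known. Of the 4 identifiers 0 matched the RefSeq table, and sequences and positions were not used here. Leaf cell types were not checked against markers, since no source used here pairs these identifiers with them.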

Additional observations from a re-analysis of the deposited data

How the results depend on the processing

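Among 1100 values for the 48 log2 differences under 30 settings, 0 were called and 7 reached an unadjusted limma p of 0.05. The settings with an unadjusted p or without a fold threshold reuse the reported fit and change only the call. The smallest adjusted p was 0.150, and 84 changed sign, none larger than 0.61 in size before the change. The 7 were NHX1b in LP1 against LP2 under quantile normalization (-0.79), median-of-ratios scaling (-0.73) and without LP2 replicate 2 (-0.91), NHX1a in LP1 against LP2 without LP2 replicate 2 (-0.51), NHX1a in L against LP1 (0.41) with only those groups and without LP2 replicate 2, and KEA5a in HP2 against LP2 without LP2 replicate 1 (1.05). The cause of the sign changes was not tested. The fit of only the groups compared gives no value for mid-parents or for the difference of hybrid effects.

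Scaling moved the median of all genes most in comparisons with LP2, by -0.19 under quantile normalization and -0.23 under median-of-ratios scaling in L against LP2. Under quantile normalization the sign changed for NHX1b in HP1 against HP2 (0.017), H against L (0.026) and the hybrid effects (0.16), for KEA5b in L against its mid-parent (-0.029) and HP2 against LP2 (-0.038), and for NHX1a in HP2 against LP2 (-0.10). The r of NHX1a with KEA5b became -0.33 and that of NHX1b with KEA5a -0.12. Under median-of-ratios scaling it changed for NHX1b in HP1 against HP2 (0.044), H against L (0.057) and the hybrid effects (0.19), KEA5b in L against its mid-parent (-0.025) and NHX1a in HP2 against LP2 (-0.19).

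Without H replicate 3 and replicate 1 of both its parents it changed in H against HP1 for KEA5a (-0.26) and NHX1a (0.27), in HP1 against HP2 for KEA5a (0.048), KEA5b (0.12) and NHX1b (0.019), in HP2 against LP2 for NHX1a (-0.11), in HP1 against LP1 for KEA5a (0.015) and KEA5b (0.017), and for NHX1b in H against L (0.22) and the hybrid effects (0.47). Without replicate 3 of H and HP1 and replicate 1 of HP2 it changed in H against HP1 for KEA5a (-0.051) and NHX1a (0.00077), for NHX1b in HP1 against HP2 (0.29), H against L (0.22) and the hybrid effects (0.33), and for NHX1a in HP2 against LP2 (-0.11).

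Leaving out 1 library at a time gave these ranges where a sign changed. In H against HP1 they were -0.15 to 0.14 for KEA5a, -0.22 to 0.10 for NHX1a and -0.13 to 0.42 for NHX1b, and in H against HP2 -0.066 to 0.27 for NHX1a and -0.15 to 0.41 for NHX1b. In H against its mid-parent they were -0.19 to 0.048 for KEA5a, -0.15 to 0.18 for NHX1a and -0.14 to 0.42 for NHX1b. In HP1 against HP2 they were -0.24 to 0.096 for KEA5b, -0.0054 to 0.33 for NHX1a and -0.28 to 0.22 for NHX1b. In L against LP1 they were -0.19 to 0.22 for KEA5a and -0.28 to 0.17 for KEA5b, in L against LP2 -0.11 to 0.56 for NHX1a and -0.48 to 0.18 for NHX1b, and in L against its mid-parent -0.0087 to 0.22 for KEA5b and -0.021 to 0.36 for NHX1b. In LP1 against LP2 they were -0.017 to 1.01 for KEA5a and -0.51 to 0.16 for NHX1a, in HP2 against LP2 -0.37 to 0.30 for NHX1a, and in HP1 against LP1 -0.40 to 0.015 for KEA5a and -0.42 to 0.041 for KEA5b. For NHX1b they were -0.34 to 0.22 in H against L and -0.31 to 0.25 in the hybrid effects. The log2 ratio of the KEA5 pair ran between -0.17 and -0.079.

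With the replicate block 0 of the 4 genes were called in any comparison (smallest limma adjusted p 0.472). Every group holds the same replicate numbers, so the block cannot change the differences, only their spread. Calls among all genes moved by over 1.5 times in L against LP2 (59 in place of 89) and L against its mid-parent (42 in place of 69). Numbers of called genes among all tested ranged over the settings between 14 and 2297 in H against HP1 (166 as reported), 23 and 2154 in H against HP2 (143), 15 and 2823 in H against its mid-parent (164), 30 and 463 in HP1 against HP2 (157), 0 and 2207 in L against LP1 (57), 1 and 888 in L against LP2 (89), 1 and 916 in L against its mid-parent (69), 3 and 2033 in LP1 against LP2 (67), 0 and 450 in HP2 against LP2 (1), 34 and 644 in HP1 against LP1 (189), 6 and 637 in H against L (55), and 0 and 917 in the hybrid effects (29). The upper ends for H against HP1, HP2 and its mid-parent came from the set without H replicate 3 and replicate 1 of both its parents. In all other comparisons they came from calling by unadjusted p, a looser threshold on the reported fit. With 3 libraries in a group and no read counts, differences inside the confidence intervals are not excluded. In the K326 cross these intervals reach past the fold threshold, up to 1.77 for KEA5a in L against LP2.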
